A study of Mus musculus with 16 samples.

Results

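Promoter fragments named for small nuclear and small nucleolar RNA copies made up 1634 of the 20017 baits in a promoter-capture Hi-C table from mouse pluripotent cells. A bait is a HindIII restriction fragment that was pulled down with a capture probe because it holds an annotated gene start. A bait was included when each of its names was a numbered copy of a U RNA, a SNORA or a SNORD, such as U6.866 or SNORA17.501. The choice used the names alone and no measured value. The 18383 other baits served for comparison. Copy baits held 18847 listed interactions and the other baits 242013.

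Promoter-capture Hi-C ligates DNA ends that lie close together in fixed nuclei and enriches the products that contain a gene start. The 4 mouse embryonic stem cell lines were DNMT_KO, which lacks Dnmt1, Dnmt3a and Dnmt3b (the enzymes that add DNA methylation), its parental line DNMT_WT, TET_KO, which lacks Tet1, Tet2 and Tet3 (the enzymes that oxidise methylated cytosine), and its parental line TET_WT. Each line was assayed as embryonic stem cells (ESC, day 0, grown in 2i/Lif) and as epiblast-like cells (EpiLC, day 2), a culture model of the cells that have just left naive pluripotency. The labels list 2 replicates per line and stage, 16 samples in all, but the table has 1 score column for each of the 8 combinations. Each genotype is 1 line, so a difference between 2 lines cannot be told apart from a difference between clones. Replicate spread is therefore the spread between the 4 lines, and sequencing depth is unknown from the scores. The scores are CHiCAGO scores, a weighted measure of how far the reads joining 2 fragments exceed the number expected at that distance. Each listed interaction reached 5 in at least 1 column. One that reached 5 at a single stage is below 5 at the other by definition, so differences of chosen contacts are partly set by the listing. Wherever 4 values are given for a stage, they stand in the order DNMT_WT, DNMT_KO, TET_WT, TET_KO.

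Small nuclear RNAs are the cores of the spliceosome: U1 pairs with the start of an intron, U2 with its branch point, and U4, U5 and U6 complete the catalytic machine. U11 and U12 serve the minor spliceosome, and U7 guides the trimming of replication-dependent histone mRNAs. Small nucleolar RNAs of the C/D box class (SNORD, with U3 and U8) guide ribose methylation or ribosomal RNA cleavage, and those of the H/ACA box class (SNORA) guide pseudouridylation. Mammalian genomes carry many scattered copies of these RNAs, most of them pseudogenes left by retrotransposition, beside a small number of working genes. The baits therefore mix working RNA genes with copies whose fragment may be known for another gene.

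The sequences of 2 RefSeq genes are shown as examples of the RNAs that such baits are named for. They were not compared with those of other copies, and whether the 2 genes are expressed in these cells was not examined. The sequences were cut from RefSeq promoter windows of neighbouring genes (build GRCm38.p6) at the RefSeq coordinates of the RNA. Capitals mark the letters ACTTACCTG near the start of U1, which pair with the 5′ splice site, and AATTTGT, which opens the binding site of the Sm protein ring in both RNAs. Rnu7, in the bait U7.85, lies at chr6:124741225-124741286 on the minus strand. A U1 gene listed in RefSeq as LOC115489800, in the bait U1.72, lies at chr3:96450446-96450611 on the plus strand.
Rnu7: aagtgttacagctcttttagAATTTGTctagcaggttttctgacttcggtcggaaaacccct
LOC115489800: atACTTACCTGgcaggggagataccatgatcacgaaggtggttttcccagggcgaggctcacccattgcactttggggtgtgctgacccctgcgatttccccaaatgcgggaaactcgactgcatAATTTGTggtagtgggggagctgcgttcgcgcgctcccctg
ACTTACCTG starts at base 3 of LOC115489800, and AATTTGT at base 126 of it and base 21 of Rnu7. Counting both strands, ACTTACCTG occurs in 0.265% of 32851 RefSeq promoter windows of 300 bases and AATTTGT in 3.17%. The motifs do not overlap each other. A match describes letters and not a bound site.

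The names covered 109 RNAs, of which 48 had 1 bait. U6 copies were the most numerous (607 baits), followed by SNORA17 (404), U1 (145), U7 (55), U2 (34) and U4 (28). Another 274 baits carried other H/ACA RNAs, 53 carried C/D RNAs, and 20 carried U3. U11 and U12 had 6 baits together, and U5 and U8 had 4 each. A RefSeq small RNA gene overlapped 1111 of the 1634 fragments, and 523 held none. Fragments of 766 baits overlapped a protein-coding gene, 143 a long non-coding RNA gene only, and 725 neither. A RefSeq gene of the Rnu series lay in 9 baits: Rnu1a1 in U1.113, Rnu1b6 in U1.72, Rnu2-10 in U2.22, Rnu3b1 in U3.10, Rnu3b2 in U3.7, Rnu3b3 in U6.660, Rnu5g in U5.9, Rnu7 in U7.85 and Rnu11 in U11.4. The bait name follows an older annotation, so U6.660 is a U6 name on a fragment that also holds a U3 gene.

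Copy baits had fewer listed contacts than other baits, and, with chromosomes 4 and 11 counted, a larger share of them over more than 10 Mb. The median was 6 listed interactions per copy bait and 8 per other bait, and 262 copy baits had a single one. The most connected was U6.866, with 253. Median distance was 315.3 kb for copy baits and 271.7 kb for the others. Interactions over more than 10 Mb made up 3.62% of those of copy baits and 1.53% of the rest, and those over 1 to 10 Mb 7.56% and 5.62%. Without baits of chromosomes 4 and 11, those over more than 10 Mb came to 0.592% for copy baits and 0.817% for the rest. Without chromosome 4, those over 1 to 10 Mb came to 5.23% and 4.82%. A score was missing in at least 1 column for 8.99% and 5.64% of the interactions. These are descriptions of 1 table and were not tested.

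The number of contacts at a score of 5 or more did not separate the stages for copy baits. The ESC columns held 6269, 6374, 6058 and 6434, a mean of 6284 ± 165 (SD, n = 4 lines). The EpiLC columns held 6236, 6246, 6279 and 6221, a mean of 6246 ± 24.6. The ratio of the means was 0.994, and 1 of 4 lines had more in EpiLC. For the other baits the ratio was 1.07, with more in EpiLC in 4 of 4 lines. The distance classes of copy baits differed in direction. Contacts over 100 kb to 1 Mb averaged 4861 ± 242 in ESC and 4521 ± 401 in EpiLC, and were fewer in EpiLC in 3 of 4 lines, a ratio of 0.930 where the other baits had 1.03. ESC had 163, 384, 125 and 245 contacts over 1 to 10 Mb, and EpiLC had 525, 431, 254 and 360, higher in 4 of 4 lines. The ratio of the means was 1.71, and the other baits, also higher in 4 of 4 lines, had 1.84. Beyond 10 Mb the ESC counts were 47, 257, 88 and 43, against EpiLC counts of 429, 364, 131 and 38, higher in 3 of 4 lines for copy baits and for the others. The ratios were 2.21 and 1.52. For copy baits, the groups overlapped in each class.

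For the test between stages, each bait was given a mean contact value: the mean of the inverse hyperbolic sine (asinh) of its scores, quantile-normalised between columns after that transform, over interactions scored in all 8 columns. A difference of 0.693 on this scale is about a doubling of a score well above 1. Baits needed 3 such interactions, which 1141 copy baits had and 493 did not. The test was limma with line as a block, across 15677 baits of all kinds, and a call is a Benjamini-Hochberg adjusted p under 0.05.

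More copy baits lost contact strength than gained it on the way to EpiLC. Of 1141 tested copy baits, 29 rose and 86 fell, which is 2.54% and 7.54%. Over all 15677 tested baits the corresponding background was 3.73% rising and 5.14% falling, or 8.87% in either direction. The median difference was -0.06 for copy baits and -0.01 for all baits. Each of the 29 rises was in the same direction in 4 of 4 lines, as were 84 of the 86 falls. ESC and EpiLC values did not overlap for 138 copy baits, 12.1%, against 13.6% of all tested baits. The split depended on scaling. Unscaled columns gave 46 rises and 42 falls (4.03% and 3.68%, against 5.77% and 2.82% of all baits). Columns divided by their mean gave 31 and 64 (2.72% and 5.61%, against 4.10% and 3.67%). Under each of the 3 scalings copy baits had the smaller share of rises and the larger share of falls. Without the DNMT_KO line 2 rose and 3 fell (0.175% and 0.263%, against 0.07655% and 0.0829% of all baits). Without each other line in turn 11 to 13 rose (0.964% to 1.14%, against 0.931% to 1.74%). In those fits 22 to 35 fell (1.93% to 3.07%, against 1.46% to 2.18%). Without DNMT_KO, and separately without TET_KO, the share of rises was not smaller for copy baits.

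The falls were spread over the families. Of 245 tested SNORA17 baits 24 fell and 7 rose, with a median of -0.11, and of 451 U6 baits 34 fell and 11 rose, with a median of -0.05. Other H/ACA copies gave 13 falls and 2 rises among 197. U1 baits were balanced, with 5 falls and 5 rises among 105 and a median of -0.00. C/D copies gave 3 falls and 1 rise among 44. U7 gave 2 falls and no rise among 29, U2 gave 2 falls and 1 rise among 24, U4 gave 1 fall among 21, and U3 gave 1 of each among 13. U5 and U8 had no call among 4 baits each. By position, 44 of 444 tested baits outside annotated protein-coding and long non-coding genes fell (9.91%), against 34 of 595 inside protein-coding genes (5.71%). In a long non-coding RNA gene only, 8 of 102 fell (7.84%). Baits outside both kinds of gene had a median of 4 listed contacts, against 8 inside protein-coding genes. The shares of all baits by position are not given here. Of the 8 tested baits that hold an Rnu gene, 4 rose and none fell. These 4 are not separate cases: U1.113, U6.660 and U2.22 are ends of 1 pairing on chromosome 11, described below. The other, U11.4, lost its call without far contacts of chromosome 4.

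**Figure D1:**
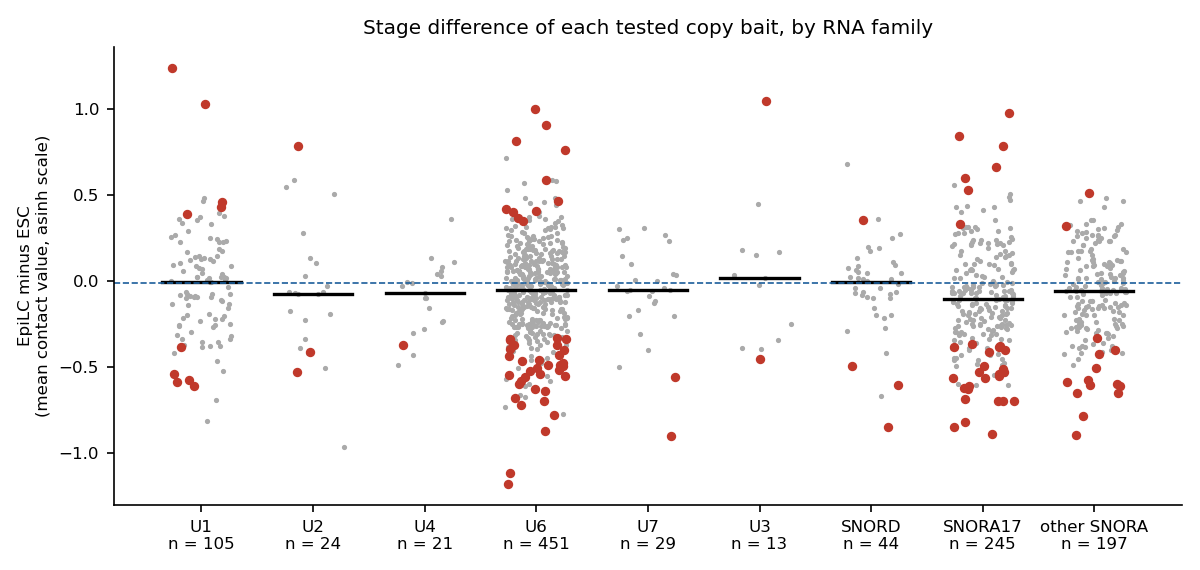
Difference between EpiLC and ESC in mean contact value (asinh scale) for each tested copy bait, grouped by RNA family with the number tested. Red points passed an adjusted p of 0.05, grey points did not, black bars are family medians and the dashed blue line is the median of all tested baits. SNORA17 has the lowest of the medians shown (-0.11), and the 2 highest points belong to U1.113 (1.24) and U3.11 (1.05).

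The largest rise of any copy bait was at Rnu1a1, a U1 gene inside Tex14 on chromosome 11. The ESC values of U1.113 were 1.04, 0.43, 1.75 and 0.43. Its EpiLC values were 2.41, 2.86, 2.60 and 0.74. The rise was 1.24 ± 0.26 (SE, adjusted p = 0.0137 in limma), and TET_KO in EpiLC stayed below 2 of the ESC values. The neighbouring U1.112, which holds the U1 copy Gm22068, rose by 1.03 ± 0.24, and U6.660, which holds Rnu3b3, by 1.00 ± 0.26. Across chromosome 11, U2.22 with Rnu2-10 had ESC values of 1.74, 1.65, 2.221 and 1.48 and EpiLC values of 2.57, 2.73, 2.85 and 2.07, which overlapped. Its rise of 0.78 ± 0.10 had an adjusted p of 0.00222 in limma, and it passed without each line in turn (adjusted p 0.0122 to 0.0367). U1.113 missed the threshold without DNMT_KO (0.84, adjusted p = 0.0797), U1.112 without either DNMT line, and U6.660 without each line but TET_KO.

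Most listed contacts of the U1 and U3 baits reached the U2 genes at the other end. Baits U1.112, U1.113, U3.7, U3.10 and U6.660 had 128 listed interactions with the fragments around U2.20, U2.22 and U2.4, over distances of 14098 to 14299 kb. The windows were chosen after the contacts had been seen. An interaction listed through EpiLC columns alone is below 5 in ESC by definition. The counts from either side are therefore partly set by the listing. In ESC, 16, 6, 41 and 5 of them reached a score of 5. The EpiLC counts were 61, 72, 80 and 8. DNMT_WT, DNMT_KO and TET_WT were high in EpiLC, whereas TET_KO was low at both stages. Seen from the U2 side, 33 listed interactions gave ESC counts of 2, 1, 15 and 1 and EpiLC counts of 18, 21, 27 and 6. Another 5 baits of that neighbourhood, which are no RNA copies of this kind, gave ESC counts of 1, 0, 12 and 0 and EpiLC counts of 20, 23, 20 and 0 over 41 listed interactions. Of the 128 interactions, 56 had a score in all 8 columns.

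Single contacts of this pairing gave the largest rises among copy baits. U2.22 with U1.113, that is Rnu2-10 with Rnu1a1, had ESC scores of 16.4, 0, 27.3 and 1.73 and EpiLC scores of 27.0, 25.8, 45.7 and 9.22. Each line was higher in EpiLC, and the adjusted p of 0.0539 in limma missed the threshold. U1.112 with the fragment starting at 101639719 scored 0, 0, 8.40 and 0 in ESC, then 16.8, 27.7, 36.8 and 17.4 in EpiLC, a rise of 3.13 ± 0.30 (SE) that passed. U2.22 with a Tex14 fragment starting at 87449902 scored at most 0.16 in ESC and 7.53, 42.7, 21.1 and 7.89 in EpiLC. That contact was listed through its EpiLC columns alone. U1.113 with Gm11634, a predicted gene beside the U2 copies, scored 3.43, 0, 2.71 and 2.61 in ESC, then 27.3, 26.8, 27.3 and 1.98 in EpiLC, a rise of 2.00 ± 0.40 with TET_KO low in EpiLC. The sequence of the Gm11634 start is shown as the mapped partner of that contact (RefSeq, GRCm38.p6, chr11:101599217-101599516, minus strand), with the transcribed bases in capitals.
Gm11634: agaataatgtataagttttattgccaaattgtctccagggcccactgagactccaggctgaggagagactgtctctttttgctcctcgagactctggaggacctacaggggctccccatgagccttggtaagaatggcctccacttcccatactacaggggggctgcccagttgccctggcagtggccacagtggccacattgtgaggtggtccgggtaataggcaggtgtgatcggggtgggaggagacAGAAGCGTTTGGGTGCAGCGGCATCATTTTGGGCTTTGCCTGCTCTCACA
Neither ACTTACCTG nor AATTTGT occurs in this window on either strand.

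Contacts within 1 Mb at the same baits gave smaller differences. U2.22 with a fragment 71.9 kb away, next to Dhx8, scored between 23.8 and 33.3 in ESC and between 23.2 and 37.0 in EpiLC (0.12 ± 0.18). With contacts within 1 Mb alone, U2.22 rose by 0.38 ± 0.09 (adjusted p = 0.0192 in limma) and U1.112 differed by 0.03 ± 0.13 (adjusted p = 0.917). U3.7, with Rnu3b2, differed by 0.06 ± 0.11 within 1 Mb (adjusted p = 0.771), and by 0.45 ± 0.19 over all distances, which did not pass. U1.113, U6.660 and U3.7 were also each listed with the fragment of Snord118, the U8 gene at the edge of Tmem107, 18349 to 18398 kb away. Their scores with it in DNMT_KO EpiLC were 15.9, 7.69 and 17.47, and 0 to 8.30 in the other columns that held a score. These loci hold near-identical copies, so the values of any one copy are uncertain. The sources used here do not say how reads matching several copies were placed.

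**Figure D2:**
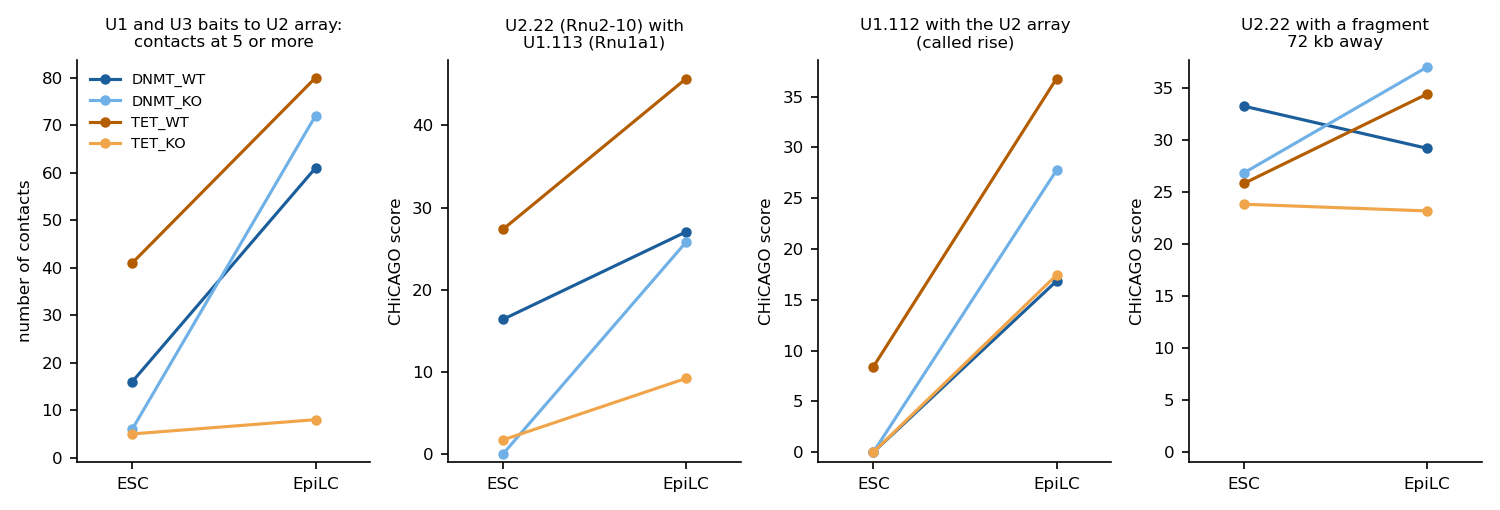
Contacts between the snRNA and U3 genes of chromosome 11 in each line (colours), ESC against EpiLC. From left, the number of contacts at a score of 5 or more from the U1 and U3 baits to the U2 window, then CHiCAGO scores of U2.22 with U1.113, of U1.112 with the fragment at 101639719, and of U2.22 with a fragment 71.9 kb away. TET_KO holds 8 of the long-range contacts in EpiLC, where the other lines hold 61 to 80.

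The other Rnu baits gave mixed results. U7.85, with Rnu7, the RNA of histone mRNA processing, held 54 listed interactions and changed by 0.25 ± 0.10, which did not pass (adjusted p = 0.11 in limma). Its contact with a fragment 277.6 kb away, nearest to Clstn3, scored 5.27, 3.32, 5.65 and 6.06 in ESC, then 13.3, 13.4, 11.5 and 11.1 in EpiLC, with no overlap between the stages. The difference of 0.88 ± 0.16 passed. Its contact with Nanog, a pluripotency transcription factor gene 2042 kb away, scored 4.96, 0, 0.26 and 2.13 in ESC, then 4.55, 4.85, 7.53 and 0 in EpiLC, which overlapped. U11.4, with Rnu11 of the minor spliceosome, rose by 0.54 ± 0.15 (adjusted p = 0.0376 in limma). The call was lost without DNMT_KO, DNMT_WT or TET_KO (adjusted p 0.116 to 0.159), and without contacts within chromosome 4 over more than 1 Mb (0.46, adjusted p = 0.053). Its strongest contact, with Fuca1 3648 kb away, scored 0, 20.9, 0 and 0 in ESC, then 24.9, 39.6, 0 and 0 in EpiLC, so both TET lines stood at 0. U1.72 and U5.9 differed by 0.12 ± 0.10 and 0.00 ± 0.11. U3.10 had 2 complete interactions and was not tested.

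**Figure D3:**
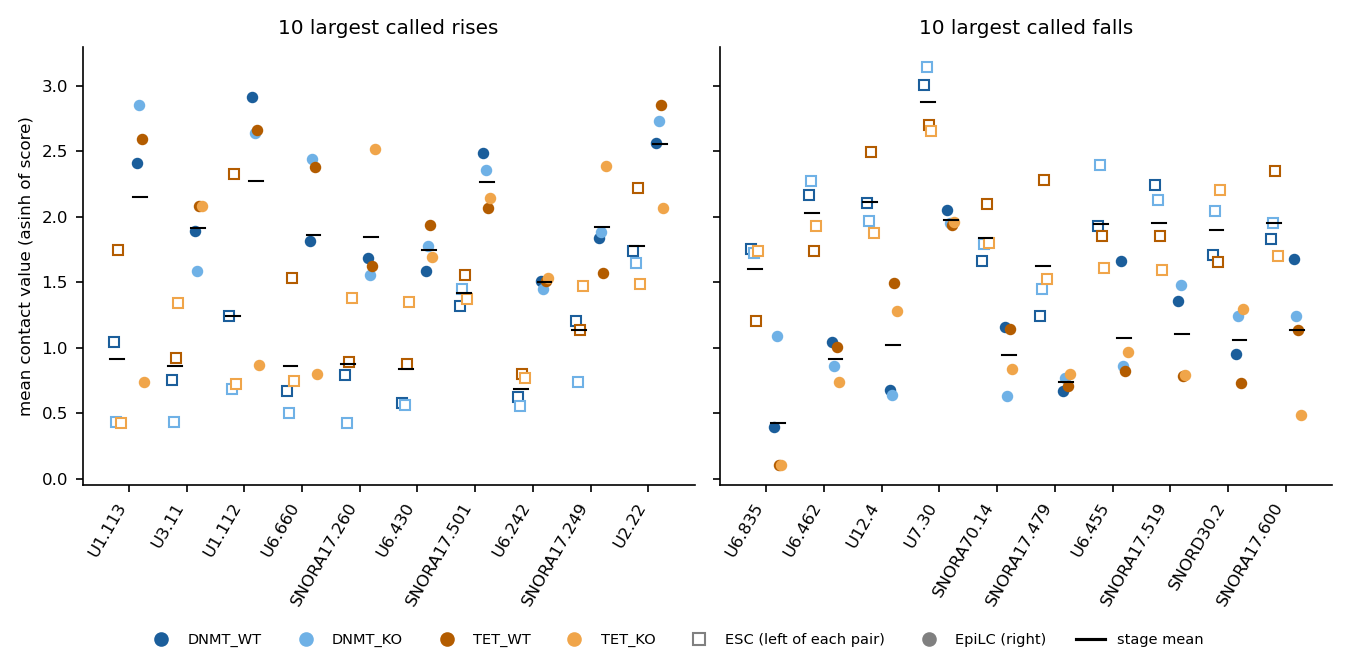
Mean contact value (asinh of score) of the 10 copy baits with the largest called rises and the 10 with the largest called falls. Open squares are ESC, filled circles EpiLC, colours the 4 lines and bars the stage means. Among the rises, TET_KO lies apart from the other EpiLC values at U1.113 (0.74), U1.112 (0.87) and U6.660 (0.80).

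On chromosome 4, 3 copy baits around Klf4 had called rises that rested mainly on contacts over more than 1 Mb. Klf4 encodes a transcription factor of naive pluripotency. U3.11 lies at 55290571, SNORA17.249 at 55467699, 45.7 kb from the Klf4 gene, and SNORA17.260 at 56673645. SNORA17.260 had ESC values of 0.79, 0.43, 0.89 and 1.38 and EpiLC values of 1.69, 1.56, 1.62 and 2.52, without overlap and with TET_KO highest at both stages, a rise of 0.97 ± 0.20. U3.11 rose by 1.05 ± 0.20 and SNORA17.249 by 0.78 ± 0.19, also without overlap between stages. Only 1, 1 and 2 listed interactions of SNORA17.260, U3.11 and SNORA17.249 lay within 1 Mb, too few for a test without the farther ones. SNORA17.260 had 26 listed interactions with fragments beside Klf4, 1153 to 1264 kb away. Of these, 0, 0, 0 and 6 reached 5 in ESC, then 9, 10, 8 and 23 in EpiLC, and all 5 called farther rises of this bait ended there. Toward SNORA17.260, SNORA17.249 had ESC counts of 1, 0, 0 and 1 and EpiLC counts of 0, 4, 1 and 10. U3.11 had 0, 0, 0 and 1, then 2, 2, 2 and 3. The 1 other bait listed there, no RNA copy of this kind, had 1, 0, 0 and 1, then 3, 3, 5 and 5. All these counts are partly set by the listing. The contact of SNORA17.260 with Klf4 itself scored 2.42, 3.58, 3.54 and 9.24 in ESC, then 7.87, 4.18, 5.85 and 11.3 in EpiLC, which overlapped (0.46 ± 0.20). The much shorter contact of SNORA17.249 with Klf4 had the opposite sign, from 4.09, 4.003, 6.03 and 4.32 in ESC to 1.28, 1.51, 0.79 and 0.75 in EpiLC. Those values did not overlap, and the difference of -1.44 ± 0.37 had an adjusted p of 0.0884 in limma. Without DNMT_KO, and separately without TET_KO, the calls of SNORA17.249 and SNORA17.260 missed the threshold, and U3.11 missed it without DNMT_KO.

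Other rising baits had contacts toward Myc and Inhba. SNORA17.501, a copy in a gene-poor stretch of chromosome 15, had ESC values of 1.31, 1.45, 1.56 and 1.37 and EpiLC values of 2.49, 2.35, 2.07 and 2.14, a rise of 0.84 ± 0.14 without overlap. All 13 of its listed interactions lie within 1 Mb and reach toward Myc, which encodes a growth-promoting transcription factor. The fragment ending at 61983323, 2.02 kb from Myc, scored 3.54, 3.48, 2.71 and 4.39 in ESC, then 10.9, 7.75, 6.52 and 13.01 in EpiLC (0.93 ± 0.17, adjusted p = 0.0344 in limma). The fragment of Myc itself gave 0.77, 0, 0.27 and 1.83 in ESC, then 3.43, 5.09, 1.42 and 6.48 in EpiLC, which did not pass. U6.430, in Sugct on chromosome 13, rose by 0.91 ± 0.22. It and U6.255 had 32 listed interactions with the surroundings of Inhba, which encodes the activin A subunit. At 5 or more, ESC had 1, 1, 0 and 7 of these and EpiLC 9, 13, 14 and 16, counts that the listing partly set. U6.242, on chromosome 15, rose by 0.81 ± 0.24 over 5 complete interactions, and lost its call without any one of the 4 lines (adjusted p 0.0855 to 0.136 in limma). The gene nearest its 4 highest-scoring partners was Has2, 311 to 346 kb from them, and none of the 4 passed on its own.

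The largest falls came from baits with few contacts, between 3 and 16 each. U6.835, inside the vomeronasal receptor gene Vmn2r1, had ESC values of 1.75, 1.72, 1.20 and 1.74 and EpiLC values of 0.39, 1.09, 0.10 and 0.11 over 4 complete interactions. The difference was -1.18 ± 0.26, without overlap. U6.462 fell by 1.12 on the same scale, from 1.74 to 2.27 in ESC to 0.73 to 1.04 in EpiLC, and its top 4 partners lay in Stard13 411 to 579 kb away. U12.4 fell too (-1.09 ± 0.19), and its top 4 partners lay in Adk, which encodes adenosine kinase. The one starting at 21143890 scored 10.4, 4.81, 7.97 and 6.24 in ESC, then 0, 0.35, 6.83 and 7.31 in EpiLC, so its low scores were those of the DNMT lines. It did not pass on its own, and the difference between the lines was not tested.

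The fall with the smallest adjusted p was U7.30, in a fragment with the long non-coding RNA genes Gm2895 and Gm31286 on chromosome 15. Its ESC values were 3.00, 3.14, 2.70 and 2.65 and its EpiLC values 2.05, 1.95, 1.94 and 1.96, a difference of -0.90 ± 0.10 with an adjusted p of 0.000863 in limma. The stages did not overlap, and the call held without each line in turn (adjusted p 0.00429 to 0.013). Its contacts are short. The one 16.1 kb away scored 19.6, 18.9, 15.7 and 14.7 in ESC, then 6.27, 5.95, 6.99 and 7.04 in EpiLC. SNORA70.14 also fell (-0.90 ± 0.20), and its 4 partners lay nearest Cxcr4, a chemokine receptor gene. SNORA17.479, U6.455, SNORA17.519, SNORD30.2 and SNORA17.600 followed, with differences of -0.89 to -0.82, and only U6.455 among the 10 overlapped between stages. Of the 20 baits with the largest called rises and falls, 18 lost the call without DNMT_KO, 6 without DNMT_WT, 9 without TET_KO and 7 without TET_WT. U2.22 and U7.30 passed without each line in turn, and U6.242 and SNORA17.479 missed the threshold without any one of the 4 lines.

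Tested one by one, 17123 interactions of copy baits gave 42 rises and 35 falls, from 44 baits. Over all 244865 tested interactions 0.207% rose and 0.108% fell. Within 1 Mb there were 24 rises and 35 falls, and farther apart 18 rises and no fall. Most of the farther rises belonged to the chromosome 11 pairing and to SNORA17.260, so they are not separate cases. The same split over all tested interactions is not given here. In limma none passed without DNMT_KO (2223 at an unadjusted p under 0.05) or without TET_KO (2125), 3 rises passed without DNMT_WT and 1 without TET_WT. SNORD127.1, at chr12:65056069, fell with 5 fragments of Togaram1, a cilium gene next to it, the largest from 12.98, 7.08, 8.59 and 3.77 in ESC to 1.54, 2.85, 1.84 and 1.39 in EpiLC. SNORA70.5 fell with 5 fragments of Ep400, a chromatin remodeller gene, on chromosome 5. SNORA49.1, from the Ep400 side, and U6.373 fell with the same Pole fragment at 110292118. U6.537 lost a contact with Wnk1, a kinase gene (-1.51 ± 0.28), and U6.319 lost 3 with Sez6l. Among the rises within 1 Mb, SNORA42.12 gained a contact in Pknox2, a homeobox gene, from 3.09, 1.08, 3.45 and 1.83 to 9.75, 8.78, 8.33 and 20.1. SNORA17.312 gained 2 contacts in the aldehyde oxidase cluster (Aox3 and Aox2) and fell with a Spats2l fragment (-0.78 ± 0.15), and SNORA17.80 gained 3 around Agpat5 and Mcph1 on chromosome 8. U6.268 gained contacts beside Slc4a1ap (1.76 ± 0.35) and near Mrpl33 (0.75 ± 0.15), SNORA17.174 gained 2 nearest Arl14ep (1.47 ± 0.29 and 0.96 ± 0.20) and U1.114 gained one at Tnni3, a cardiac troponin gene (1.32 ± 0.25). U6.7 fell with fragments of Lrrc63 (-1.45 ± 0.28) and Cpb2 (-0.78 ± 0.16), and SNORA17.230 with 2 nearest Galr1 on chromosome 18 (-1.37 ± 0.23 and -1.29 ± 0.24).

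Some contacts were strong and steady in each column. SNORA17.293, on chromosome 9 near Gclc (glutathione synthesis), scored between 33.5 and 48.2 with a fragment 192.2 kb away in all 8 columns (0.07 ± 0.20). U6.342 with Lce3a, a gene of the skin barrier, scored between 29.3 and 39.2, SNORA42.12 with another part of Pknox2 between 31.5 and 42.2, and U6.825 with Adam17, a membrane protease gene 10.7 kb away, between 26.8 and 41.3. In all, 1136 interactions of copy baits reached 5 in each of the 8 columns. There were 120 listed interactions with copy baits at both ends, over 112 pairs, and 17 of them reached 5 in all 8 columns. The strongest joined SNORA70.19 and SNORA17.80 in 321.7 kb, with scores of 19.3 to 31.0 in ESC and 10.2 to 22.3 in EpiLC. SNORD83.1 with SNORA38.2 followed, 87.7 kb apart inside the major histocompatibility region, with scores of 15.8 to 24.6 over all 8 columns. SNORA70.5 with SNORA49.1 scored 8.25 to 34.5 in ESC and 5.92 to 19.5 in EpiLC, and none of these 3 differed between stages past the threshold.

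Contacts beyond 10 Mb were concentrated on chromosomes 4, 11 and 1, which held 422, 170 and 63 of the 683 listed. Nearly all of the chromosome 4 contacts belonged to the DNMT lines. The ESC counts at 5 or more were 15, 230, 0 and 0, and the EpiLC counts 328, 244, 1 and 0. The DNMT_WT ESC column stood apart from the other 3 DNMT columns here. Distances are those of the reference build, and whether the DNMT lines carry chromosome 4 in that order was not tested. Of the 422 listed, SNORD103.1 held 189, SNORD103.2 held 80 and U6.567 held 64. U6.866, inside Cdc42, a small GTPase gene, was listed with a fragment of Eya3, a transcription coactivator gene, over 4624 kb. That contact scored 94.2 and 521.1 in the DNMT lines in ESC, then 514.0 and 30.5 in EpiLC, and had no score in the TET columns. Only 5 of the 253 interactions of U6.866 had a score in all 8 columns, so its stage difference (-0.41 ± 0.14, adjusted p = 0.0745 in limma) rests on short contacts.

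Without chromosome 4, the ESC counts beyond 10 Mb were 32, 27, 88 and 43, and the EpiLC counts 101, 120, 130 and 38. Leaving out chromosome 11 as well gave 14, 20, 31 and 37 in ESC, then 20, 23, 20 and 24 in EpiLC. The remaining far contacts lay mainly on chromosome 1. U6.149, at 3100832, contacted the Ugt1a cluster of glucuronosyltransferase genes over 85111 kb, with scores of 26.7, 18.6, 28.8 and 26.0 in ESC, then 25.6, 25.6, 34.9 and 22.8 in EpiLC. U6.1, U6.629, U7.104 and U7.44 near the same chromosome start shared that partner region. Together the 5 baits held 12 to 34 such contacts per column, the most in TET_KO ESC.

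**Figure D4:**
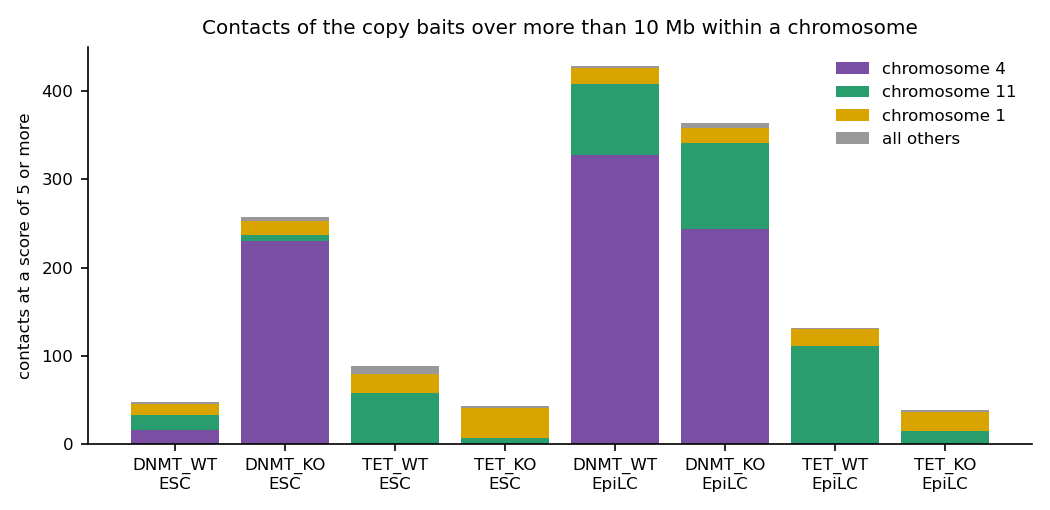
Number of contacts of copy baits at a score of 5 or more over more than 10 Mb within a chromosome, by column and stacked by chromosome. Chromosome 4 makes up 230, 328 and 244 contacts in 3 of the DNMT columns, 15 in DNMT_WT ESC and at most 1 in the TET columns.

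Between chromosomes, 184 interactions were listed. The highest scores joined U7.14 on chromosome 16 with a fragment at 9258644 on chromosome 2, between 257.1 and 606.8 in all 8 columns. SNORA17.12 with chromosome 2 (150551948) scored between 57.1 and 195.5, U1.107 with a Trmt10a fragment on chromosome 3 between 18.4 and 165.6, and U6.842 with chromosome 4 (84823688) between 0 and 166.8. U1.67, on chromosome 1, had 28 listed interactions with 1 stretch of chromosome 4. At 5 or more, DNMT_WT had 0 in ESC and 24 in EpiLC, DNMT_KO had 16 and 19, and the TET columns held no score.

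Differences between a knock-out line and its parent were counted from a doubling upward, 0.693 in mean contact value, with no test because each is 1 column against 1. In ESC, DNMT_KO was higher at 36 of the 1141 copy baits and lower at 26, where the background over all tested baits was 2.09% and 2.14%. Its EpiLC counts were 16 and 14 (background 1.35% and 1.15%). In TET_KO, 52 were higher and 44 lower in ESC (background 3.37% and 2.25%), and 50 and 56 in EpiLC (3.6% and 2.54%). The parental lines also differed from each other: TET_WT was higher than DNMT_WT at 36 copy baits and lower at 30 in ESC, against 2.16% and 1.95%, and at 37 and 32 in EpiLC, against 2.3% and 2.58%. With 10 or more complete interactions required, which left 579 copy baits, 0 to 3 passed per direction in DNMT_KO and 10 to 14 in TET_KO. The shares higher in TET_KO were 1.73% in ESC and 2.245% in EpiLC, against 1.79% and 1.745% of all baits. The shares lower were 2.245% and 2.42%, against 0.797% and 1.04%. In DNMT_KO each share was at most 0.518%, against 0.105% to 0.797% of all baits.

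The largest excess of TET_KO, among baits that had at least 10 listed interactions and kept 1 sign in both stages, was at U6.423, a copy inside Zdbf2. Zdbf2 and the neighbouring Gpr1 form an imprinted region, in which DNA methylation set in the germ line decides which parental copy is used. U6.423 had ESC values of 0.54, 0.59, 0.70 and 2.20, and EpiLC values of 0.58, 0.54, 0.46 and 2.28. TET_KO was above its parent by 1.499 in ESC and 1.82 in EpiLC, and the parental lines differed by 0.16 and -0.13. The higher scores lay 312 to 403 kb away, between Nrp2 and Ino80d. The fragment at 62894340 scored 0, 0.71, 0 and 5.20 in ESC, then 0.15, 0, 0.07 and 9.87 in EpiLC. The contact 12.1 kb away inside Zdbf2 scored 2.24, 1.14, 3.00 and 5.53 in ESC, then 4.56, 4.45, 3.43 and 6.62 in EpiLC. Of the 11 listed interactions, 7 were scored in all 8 columns. Each of the 11 reached 5 in TET_KO columns alone, so each was listed because of that line. The TET_KO excess at this bait was therefore partly set by the listing.

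**Figure D5:**
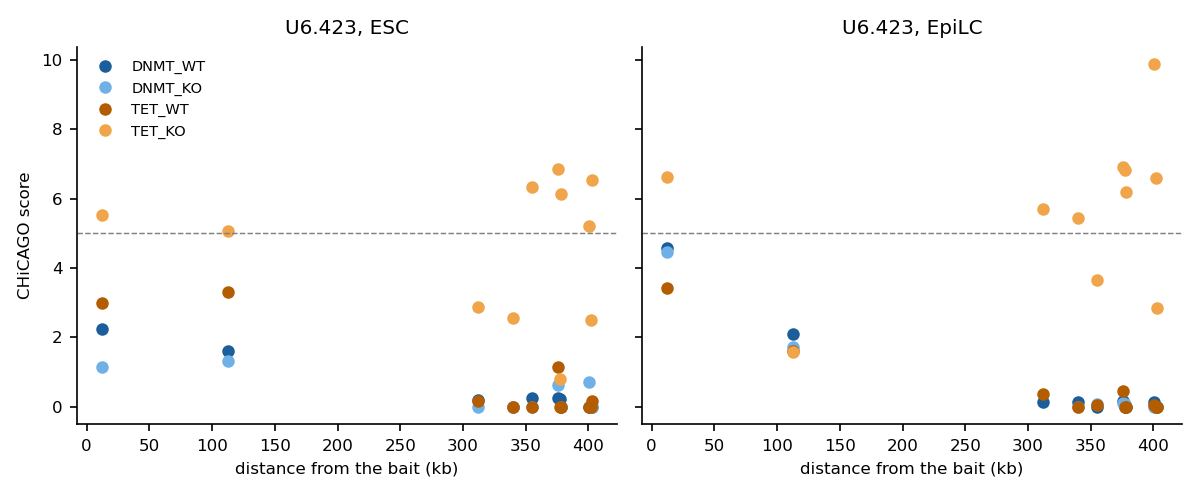
CHiCAGO scores of the 11 listed interactions of U6.423 against distance from the bait, in ESC (left) and EpiLC (right), with lines by colour and the score of 5 dashed. Beyond 300 kb, TET_KO reaches 6.86 in ESC and 9.87 in EpiLC, and no other line exceeds 1.15. Each of the 11 was listed because it reached 5 in a TET_KO column, and none reached 5 in another line.

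Other baits were higher in TET_KO at both stages. U1.174, nearest Shf on chromosome 2, exceeded TET_WT by 1.22 in ESC and 0.69 in EpiLC. There TET_WT lay below DNMT_WT by -0.90 and -0.95, so TET_KO was close to the DNMT lines. U6.362 (mean 0.94), U5.3 (0.83) and U6.83 (0.80) followed. The lowest in TET_KO were the chromosome 11 baits U1.112 (-1.70), U1.113 (-1.59), U2.20 (-1.20) and U6.660 (-1.18), with U6.441 on chromosome 7 (-1.21). U2.20 and U6.441 had 4 and 5 complete interactions. The difference of U6.441 was -1.93 in ESC and -0.49 in EpiLC, and in ESC its TET_WT value exceeded that of DNMT_WT by 1.04. In DNMT_KO the mean differences were smaller. The highest was U6.149 (0.67, with 0.68 in ESC and 0.65 in EpiLC), then SNORA17.568 (0.47), U1.21 (0.42), U11.4 (0.41) and SNORA17.253 (0.39). The lowest were U6.419 (-0.45), U1.112 (-0.42), U1.108 (-0.40), U6.825 (-0.37) and U6.866 (-0.34). The DNMT differences in ESC use the DNMT_WT column, which stood apart in far contacts of chromosome 4.

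Over interactions scored in all columns, the 5 baits with the most contacts showed no called stage change. U6.866, SNORD103.1 (244 interactions), SNORA70.3 (140), U6.825 (134) and SNORD103.2 (126) had adjusted p between 0.0745 and 0.935 in limma. This condition left 5 of 253 listed interactions for U6.866, 14 of 244 for SNORD103.1 and 9 of 126 for SNORD103.2. Over more than 10 Mb, contacts of SNORD103.1 at 5 or more went from 7 in ESC to 168 in EpiLC in DNMT_WT. In DNMT_KO they went from 137 to 110. For SNORD103.2 the counts were 1 and 57 in DNMT_WT, and 26 and 30 in DNMT_KO. The TET columns had 0 for both baits, and these far counts were not tested. SNORA70.3, inside Ybx3 on chromosome 6, gained single contacts nearly 2 Mb away in the natural killer receptor cluster (Clec12b and Klre1), from 0 in all 4 ESC columns to 3.28 to 7.14 in EpiLC at the first. Among the most connected baits of other families, U2.22 (52) had the called rise given above, and U7.85 (54) did not pass (adjusted p = 0.11 in limma). SNORA17.312 (95), U1.157 (53), U4.23 (44) and U3.3 (34), also the most connected of their families, had adjusted p of 0.174 to 0.96 in limma.

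Baits of related genes passed the test in small numbers, where 3.73% of all tested baits rose and 5.14% fell. A list of 95 genes covered proteins of small nuclear and nucleolar ribonucleoproteins, and factors that transcribe, process or assemble their RNAs. Of these genes, 56 had a tested bait. None rose (14 baits had an unadjusted p under 0.05 in limma) and 2 fell (3.57%), Ncbp1 of the nuclear cap-binding complex (-0.35 ± 0.10) and the H/ACA assembly factor Shq1 (-0.69 ± 0.17). Of 59 tested baits listed under small RNA gene symbols, 3 rose (Snora73b, Snord15a and Snora68, by 0.43 to 0.54) and Scarna13 fell (-0.54 ± 0.12), which is 5.08% and 1.69%. Of 58 tested copies of other small RNAs, 2 rose (3.45%) and 4 fell (6.90%). The medians were 0.05, 0.08 and -0.06, against -0.01 for all baits.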

How the data were processed

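The authors deposited 1 table of CHiCAGO scores, with a score per pair of HindIII fragments and 1 column per line and stage, per the file header. Per the submitters' processing notes, the tools included Trim Galore 0.6.5 and cutadapt 2.3, and the build was GRCm38. The aligner, the CHiCAGO version and the way the 2 replicates of a group were combined were not given in the sources used here. Genes and sequences came from RefSeq (GRCm38.p6).

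Scores were transformed with asinh, quantile-normalised between the 8 columns and averaged per bait over interactions scored in all columns. EpiLC and ESC were compared in limma 3.58.1 (R 4.3.3) with line as a block and a trended variance, over all baits or all interactions within a chromosome, with Benjamini-Hochberg adjustment. P-values set the EpiLC minus ESC difference against its variation between the 4 lines, with each variance drawn toward the trend over all features. On simulated data, 10 of 194 calls of baits and 23 of 146 calls of interactions were false. The simulation used independent normal noise and gave 200 features a shift that was equal in all 4 lines. Its false shares therefore need not hold for these data. The stated rule named the 10 largest called rises and falls of baits, the 5 largest of interactions within and beyond 1 Mb, the 5 strongest and most connected, and the 5 largest knock-out differences each way among baits with 10 or more listed interactions. Baits, lists and windows were chosen with earlier results of these data known, and the chromosome windows, U2.4, U6.255 and the other contacts named beyond that rule after their values were seen. Contacts at 1 locus of chromosome 4 are not reported here.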

Additional observations from a re-analysis of the deposited data

Results flagged for a closer look

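Of 80 sets of 4 lines examined with Dixon's test, 3 held a line apart from the rest, where chance marks about 1 in 20. U1.112 in EpiLC had TET_KO at 0.87, with the other lines between 2.64 and 2.92. SNORA17.260 in EpiLC had TET_KO at 2.52, with the others between 1.56 and 1.69. U6.835 in ESC had TET_WT at 1.20, with the others between 1.72 and 1.75. The stage difference of U3.3, a U3 copy in a fragment that overlaps Gip, Snf8 and Ube2z on chromosome 11, was below 0 in both DNMT lines (mean -0.14) and above 0 in both TET lines (mean 0.21), a gap of -0.35 that was not tested.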

How the results depend on the processing

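No paired analysis was possible because the columns carry no replicate numbers, beyond the pairing of ESC and EpiLC by line that the stage test uses. Copy baits that rose and fell numbered 29 and 86. They numbered 46 and 42 without scaling, 3 and 4 with wild-type columns only, 8 and 30 without the line block, 2 and 3 with a minimum of 1 interaction, 46 and 72 with a minimum of 10, and 0 and 0 when each bait's count of contacts reaching 5 was fitted in limma (203 at an unadjusted p under 0.05). Leaving out 1 line gave 2 to 13 rises and 3 to 35 falls. With wild-type columns only the shares were 0.263% and 0.351%, against 0.0829% and 0.102% of all baits. They were 0.701% and 2.63% without the line block, against 1.295% and 2.035%. With a minimum of 10 they were 7.945% and 12.4%, against 9.44% and 9.75%. Single interactions, 42 up and 35 down, gave 64 and 55 on log2(score + 1), 0 and 0 in limma with wild-type columns only (1422 at an unadjusted p under 0.05), 10 and 9 without the line block, and 66 falls within 1 Mb alone. Leaving out 1 line gave 0 to 3 rises and 0 falls. The ratio of contacts was 1.03 at a threshold of 3, 1.08 at 10 and 0.941 within 1 Mb, against 0.994. Leaving out contacts within chromosome 4 over more than 1 Mb, a setting chosen after seeing the data, gave 0.967, and leaving out 1 line 0.980 to 1.00. Copy baits lower in TET_KO ESC numbered 24 without scaling and 28 within 1 Mb, against 44. Their shares were 2.10%, 2.55% and 3.86%, against 1.51%, 1.81% and 2.25% of all baits. With 10 or more interactions, those higher and lower numbered 3 and 2 (DNMT_KO, ESC), 1 and 0 (DNMT_KO, EpiLC), 10 and 13 (TET_KO, ESC) and 13 and 14 (TET_KO, EpiLC), with 579 baits in place of 1141. Shares of all baits for this setting are given with the knock-out differences. Over all settings, 21 named baits that had a call lost it in 115 of 295 alternative values, and 19 named interactions in 105 of 202, and no called value changed sign. Scores carry no depth, so counting error is unknown, and the cause of these shifts was not tested.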
